A study of Mus musculus with 8 samples.

Results

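The Hox genes are the 39 mouse genes of the Hoxa, Hoxb, Hoxc and Hoxd clusters, chosen by gene name alone out of 54688 annotated genes listed in every library. They number 11 in the Hoxa cluster, 10 in Hoxb, 9 in Hoxc and 9 in Hoxd. Hoxd4 carries 2 Ensembl identifiers, so the genes occupy 40 rows. Transcript levels were measured by RNA sequencing of colon of BALB/cA mice, in 8 libraries of 1 per group, so that a difference between 2 libraries has no replicate check. KO mice were DCIR-/-, lacking the inhibitory C-type lectin receptor encoded by Clec4a2, and WT mice were wild type. Colon of each genotype was taken untreated in the steady state and at day 12 after dextran sulfate sodium (DSS), an agent that damages the epithelial lining. At day 112 after azoxymethane (AOM, a carcinogen) and DSS, non-polyp colon and polyps were taken from each genotype. The labels do not give the stretch of colon sampled, the sex or the number of mice behind a library, and the submitters' design text counts 5 samples where 8 are listed. What the spread between libraries measures, animals or handling, is therefore not settled.

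Hox genes encode homeodomain transcription factors that tell cells where they lie along the body. Within a cluster, genes with low numbers are used toward the head and those with high numbers toward the tail, and genes with the same number in different clusters are paralogs. In the gut they pattern the mesoderm that becomes muscle and stroma as well as the endoderm that becomes epithelium, and group 13 genes mark the hindgut, rectum and urogenital outlets. The mix of Hox transcripts in a piece of colon is for this reason read as a guide to where it came from, but Hox levels also differ between the tissue layers, and a bulk library cannot tell fewer cells of a type from less RNA per cell.

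The sequences shown here are those of the 4 posterior Hoxd genes that were nearly absent from WT non-polyp colon, and of Hoxa13, which was not. They are the windows from 250 bases before to 50 bases after each annotated start (RefSeq, GRCm38.p6), of which Hoxd11 has 2. Capitals mark TATAAA, the TATA box, and TTTATG, a core bound by Cdx and posterior Hox proteins, on either strand.
Hoxd13, chr2:74667975-74668274, plus strand: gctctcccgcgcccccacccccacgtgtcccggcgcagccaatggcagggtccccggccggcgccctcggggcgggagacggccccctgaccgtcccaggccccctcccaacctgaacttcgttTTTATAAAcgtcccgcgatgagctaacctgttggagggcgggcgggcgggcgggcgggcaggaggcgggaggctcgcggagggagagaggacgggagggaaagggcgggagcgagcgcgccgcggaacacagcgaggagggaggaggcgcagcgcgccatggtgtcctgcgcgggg
Hoxd12, chr2:74674763-74675062, plus strand: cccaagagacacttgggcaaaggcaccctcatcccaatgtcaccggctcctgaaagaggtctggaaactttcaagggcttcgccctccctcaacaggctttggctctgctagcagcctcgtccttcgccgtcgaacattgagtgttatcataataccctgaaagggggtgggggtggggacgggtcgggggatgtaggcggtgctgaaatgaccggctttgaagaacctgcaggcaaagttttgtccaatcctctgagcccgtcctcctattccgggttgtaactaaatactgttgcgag
Hoxd11, chr2:74679308-74679607, plus strand: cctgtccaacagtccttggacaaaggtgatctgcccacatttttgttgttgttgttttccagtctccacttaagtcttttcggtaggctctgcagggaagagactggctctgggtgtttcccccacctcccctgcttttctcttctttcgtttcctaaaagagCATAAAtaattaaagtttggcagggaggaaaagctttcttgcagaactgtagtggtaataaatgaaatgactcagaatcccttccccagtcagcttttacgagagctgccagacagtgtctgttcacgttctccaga
Hoxd11, chr2:74682073-74682372, plus strand: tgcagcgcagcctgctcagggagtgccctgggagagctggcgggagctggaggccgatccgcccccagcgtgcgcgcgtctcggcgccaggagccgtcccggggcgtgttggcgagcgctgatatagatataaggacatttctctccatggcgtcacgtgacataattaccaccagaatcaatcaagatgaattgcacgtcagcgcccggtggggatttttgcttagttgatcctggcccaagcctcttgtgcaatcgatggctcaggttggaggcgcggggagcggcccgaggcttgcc
Hoxd10, chr2:74691641-74691940, plus strand: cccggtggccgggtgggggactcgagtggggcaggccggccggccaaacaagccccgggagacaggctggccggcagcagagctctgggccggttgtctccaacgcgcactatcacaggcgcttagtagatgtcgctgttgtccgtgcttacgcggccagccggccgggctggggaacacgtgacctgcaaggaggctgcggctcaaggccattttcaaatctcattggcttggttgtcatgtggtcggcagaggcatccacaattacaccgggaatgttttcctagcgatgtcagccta
Hoxa13, chr6:52260831-52261130, minus strand: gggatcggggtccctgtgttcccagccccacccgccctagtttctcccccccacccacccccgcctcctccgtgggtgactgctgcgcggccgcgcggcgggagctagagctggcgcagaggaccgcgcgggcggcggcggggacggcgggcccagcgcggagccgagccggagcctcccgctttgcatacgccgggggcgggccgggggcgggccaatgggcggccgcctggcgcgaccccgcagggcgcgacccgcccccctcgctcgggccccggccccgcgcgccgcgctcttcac
The Hoxd13 window held 2 overlapping matches to TATAAA, 1 on each strand, the first Hoxd11 window held 1 match to TTTATG, and the other windows printed held neither. The Hoxd13 window was 74.3% G and C with 37 CpG dinucleotides, Hoxd12 55.0% with 13, the Hoxd11 windows 45.7% with 4 and 62.0% with 25, Hoxd10 62.7% with 22 and Hoxa13 81.0% with 45. For 22 Hox genes there were 24 such windows, with a median of 57.7% G and C and 14.5 CpG, against 52.7% and 7 over all 32851 windows of this length. TATAAA was found in 4 of the 24 Hox windows (16.7%) and in 13.6% of all windows. TTTATG was in 5 Hox windows (20.8%) and in 11.9% of all windows, and no window printed held both motifs. A match is only a run of letters and not a site.

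The libraries are first described as a whole, since some stood apart. Aligned bases lay between 2.70 and 3.35 gigabases per library. Clec4a2 was listed at 0 TPM (the deposited level, scaled for gene length and library total) in 3 KO libraries and stood at 0.659 TPM in KO steady state, against 2.74 to 4.33 TPM in the 4 WT libraries, so the KO steady-state label is in doubt. The X-inactivation RNA Xist stood at 63.0 to 104 TPM in the day 112 libraries, and Y-linked Ddx3y at 0 there, whereas all steady-state and DSS libraries expressed Ddx3y at 18.4 to 30.9 TPM and Xist at 0.0291 to 0.114 TPM. Every epithelial marker was present in every library, with a sum over 9 genes of 11542 to 16117 TPM. Prostate and seminal vesicle genes summed to 4998 to 7736 TPM over 14 genes in the steady-state and DSS libraries and to 396 to 1014 TPM at day 112, where Pbsn and at least 8 other markers were at 0 and Spink1 alone gave 381 to 1004 TPM. Over all 16855 genes with a mean of at least 1 TPM, the closest of 28 library pairs was KO non-polyp and KO polyp, with a root mean square difference of 0.39 on the log2 scale. KO non-polyp was also closer to WT polyp (0.55) than to WT non-polyp (1.11), and how far its tissue is free of polyp was not tested. Fat cell genes summed to 1021 TPM in KO and 73.8 TPM in WT at steady state, and to 657 TPM in WT non-polyp against 32.5 to 77.0 TPM in the other day 112 libraries. Pancreatic acinar genes other than Cela1, which all libraries held, summed to 52.0 TPM over 9 genes in WT non-polyp, Ctrb1 (21.9 TPM) leading, and to at most 0.628 TPM in the others.

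Across the 8 libraries the colon expressed the Hoxa, Hoxb and Hoxd clusters and hardly any Hoxc. A mean of at least 1 TPM was reached by 26 of the 39 genes, 10 of Hoxa, 9 of Hoxb and 7 of Hoxd. None of the 9 Hoxc genes did. The highest Hoxc value was 1.03 TPM, for Hoxc4 in WT non-polyp colon, and the number of Hoxc genes above 0 was 7 in KO steady state, 1 in WT steady state, 2 in KO DSS, 2 in WT DSS, 0 in KO non-polyp, 5 in WT non-polyp, 0 in KO polyp and 1 in WT polyp. Hoxb1, Hoxc12 and Hoxc13 were listed at 0 in every library. Among low-numbered genes, Hoxd1 stayed at or below 0.174 TPM and Hoxd3 at or below 0.550 TPM. Hoxa3 reached 16.8 TPM and Hoxb2 5.40 TPM, both in WT non-polyp colon. The heatmap of Hox levels shows higher levels among the high numbers of Hoxa, Hoxb and Hoxd in most libraries, with Hoxb13 on top in every library except WT non-polyp. Hoxd levels did not rise in WT non-polyp, with Hoxd8 at 3.93 TPM and Hoxd13 at 1.91 TPM. Hoxa levels were highest at Hoxa9 or Hoxa10 in every library. In KO non-polyp, KO polyp and WT polyp they fell to 8.71 to 16.6 TPM at Hoxa11 and Hoxa13.

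**Figure D1:**
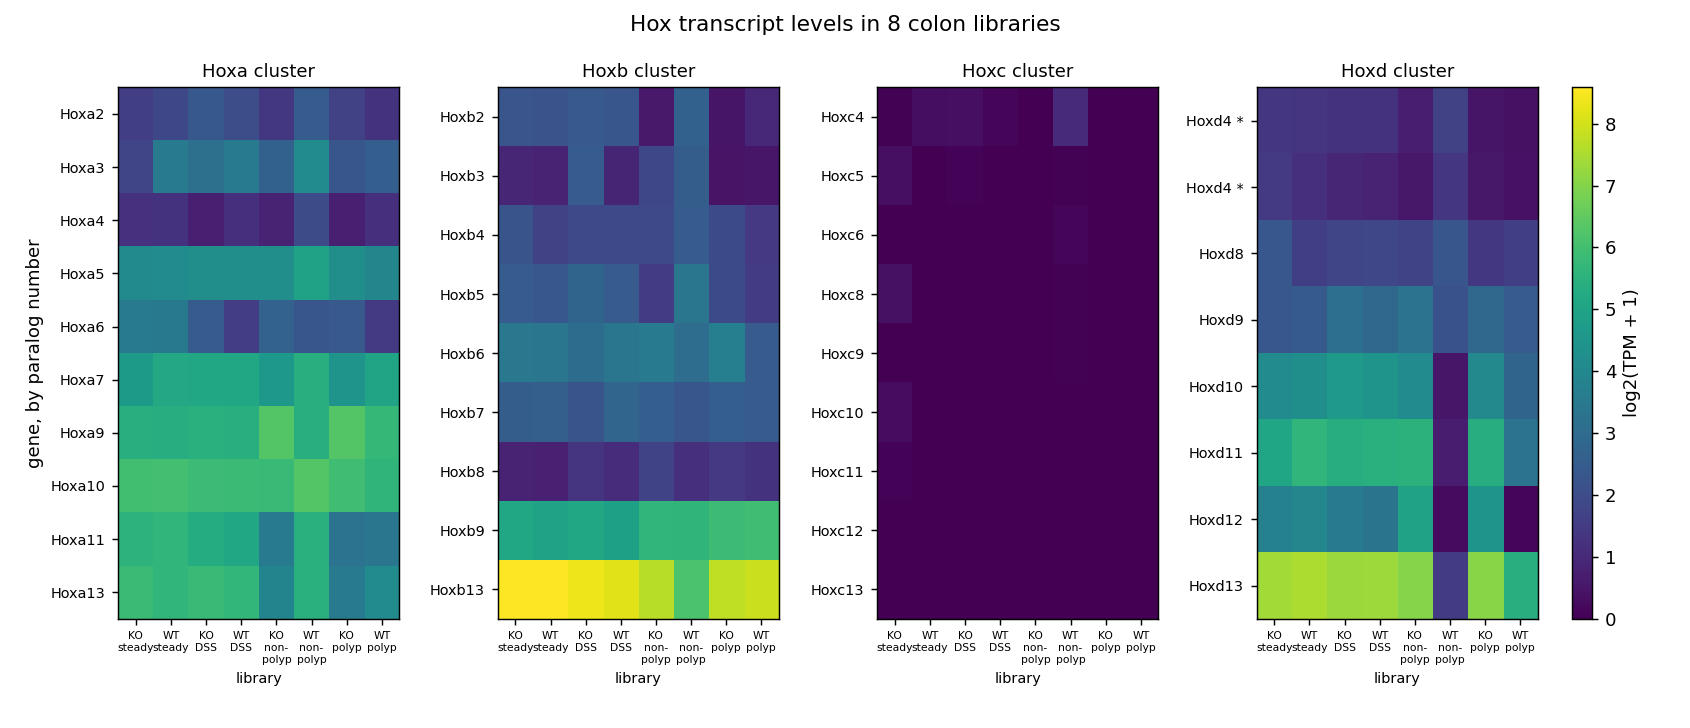
Levels of the Hoxa, Hoxb and Hoxd genes that reached 1 TPM in some library and of all Hoxc genes, as log2(TPM + 1), in 8 libraries (columns, KO left of WT at each stage), with genes in order of paralog number in each cluster; the asterisks mark the 2 identifiers of Hoxd4. The Hoxc panel is dark throughout, at 1.03 TPM or less, and the 4 highest-numbered Hoxd genes are dark in WT non-polyp colon.

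The order along the clusters was summarised as the mean paralog number, in which each Hox gene counts by its TPM. It was 11.5 in KO steady state, 11.4 in WT steady state, 11.3 in KO DSS, 11.3 in WT DSS, 10.9 in KO non-polyp, 9.15 in WT non-polyp, 10.9 in KO polyp and 10.9 in WT polyp. WT non-polyp lay below the other 7 libraries, which spanned less than 1 paralog number. Groups 9 to 13 made up 69.3% of the summed Hox TPM in WT non-polyp, against 86.9% to 90.02% in the other libraries. Group 13 alone took 47.7% in KO non-polyp and 24.3% in WT non-polyp, 49.4% in KO polyp and 53.0% in WT polyp, and 59.7% to 63.9% at steady state and after DSS. Summed Hox TPM was 476 in WT non-polyp and 561 to 995 elsewhere. WT non-polyp remained the lowest when genes were weighted by log2(TPM + 1), when group 13 was left out and when genes overlapping another listed gene were left out. Taken by cluster, its mean was lowest within Hoxb, at 9.81 against 11.6 to 12.3 in the other libraries. Within Hoxd it was also lowest, at 7.90 against 11.9 to 12.2. Within Hoxa it was not, at 8.90 beside 8.74 in KO non-polyp, 8.75 in KO polyp and 8.77 in WT polyp.

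**Figure D2:**
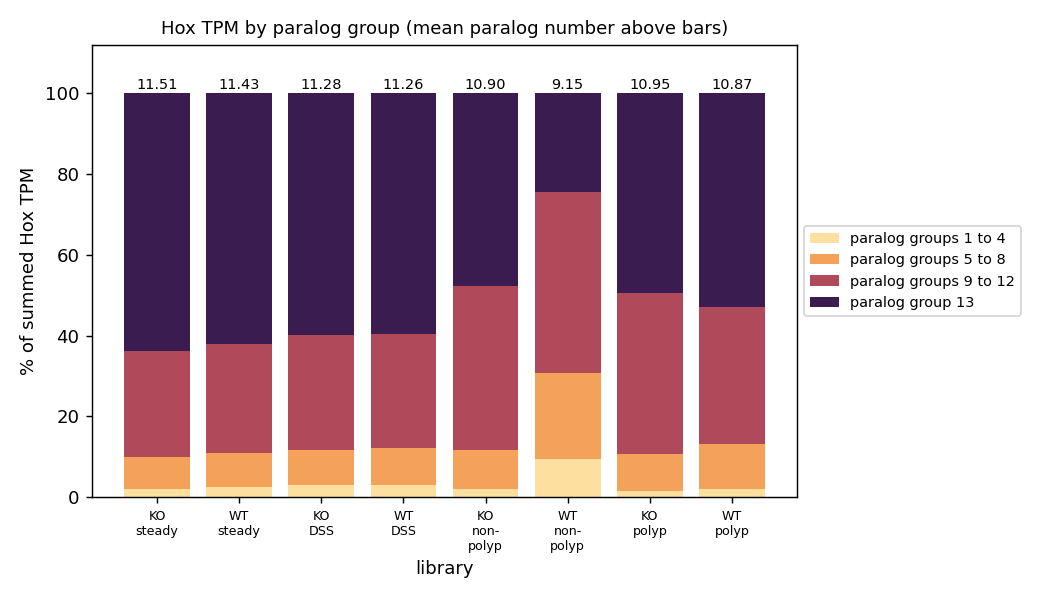
Share of the summed Hox TPM (%) in 4 ranges of paralog groups in each library, with the mean paralog number above each bar. In WT non-polyp, group 13 holds 24.3% and the mean is 9.15, while the other 7 libraries have means of 10.87 to 11.51.

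The posterior Hoxd genes, which pattern the hindgut and the external genitalia, carried the widest differences. Hoxd13 (ENSMUSG00000001819, chromosome 2, 74668310 to 74671599, GRCm38) encodes the last protein of its cluster. Its level was 169 TPM in KO and 183 TPM in WT at steady state, 157 TPM in KO and 159 TPM in WT after DSS, 129.8 TPM in KO and 1.91 TPM in WT non-polyp colon, and 131 TPM in KO and 41.1 TPM in WT polyp. Both genotypes were alike until day 112, when WT non-polyp was nearly without the transcript and WT polyp stood between that and KO polyp. Hoxd12 (74675013 to 74677705), the neighbour of Hoxd13, was at 12.5 TPM in KO and 14.9 TPM in WT at steady state, 10.6 TPM in KO and 8.82 TPM in WT after DSS, 29.5 TPM in KO and 0.197 TPM in WT non-polyp colon, and 20.9 TPM in KO and 0.0749 TPM in WT polyp. Here both WT day 112 libraries were near 0, and both KO day 112 libraries were above every other library. Reads over Hoxd12 were scarce there, with a mean coverage of 0.296 reads per base in WT non-polyp and 0.118 in WT polyp.

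Hoxd11 (74679557 to 74687016) was at 32.1 TPM in KO and 49.0 TPM in WT at steady state, 40.2 TPM in KO and 42.6 TPM in WT after DSS, 45.0 TPM in KO and 0.563 TPM in WT non-polyp colon, and 39.6 TPM in KO and 8.71 TPM in WT polyp. Hoxd10 (74691924 to 74695105) was at 16.5 TPM in KO and 18.5 TPM in WT at steady state, 24.1 TPM in KO and 20.8 TPM in WT after DSS, 16.7 TPM in KO and 0.438 TPM in WT non-polyp colon, and 15.4 TPM in KO and 5.78 TPM in WT polyp. Both genes kept the order of Hoxd13, with WT non-polyp lowest and WT polyp next, and the other 6 libraries higher and close together. The predicted RNA Gm28309 overlaps both genes on the same strand and followed them, at 56.9 TPM in KO and 1.74 TPM in WT non-polyp colon and 48.4 TPM in KO and 12.2 TPM in WT polyp, so their reads may be shared. Toward the front of the cluster the loss in WT non-polyp ended. Hoxd9, with no overlapping gene, was at 3.48 TPM in WT non-polyp against 4.05 to 8.64 TPM in the other libraries, and Hoxd8, at 3.93 TPM, was within their range of 1.65 to 4.07 TPM. Hoxd4 under its fitted identifier was highest in WT non-polyp, at 2.26 TPM against 0.298 to 1.58 TPM elsewhere, but under its other identifier it was at 1.55 TPM there and highest in KO steady state, at 1.76 TPM.

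The 4 genes were not low by a common factor. The ratio of Hoxd11 to Hoxd13 was 0.347 in KO non-polyp and 0.295 in WT non-polyp. It was 0.302 in KO polyp and 0.212 in WT polyp, against 0.190 to 0.268 at steady state and after DSS. Mean coverage gave the reverse order in non-polyp colon, so this order depends on the measure. By coverage, Hoxd11 was at 25.2 reads per base in KO and 0.642 in WT non-polyp, and Hoxd13 at 190 and 2.86. The ratio of Hoxd12 to Hoxd13 was 0.228 in KO non-polyp and 0.103 in WT non-polyp, and 0.159 in KO polyp and 0.00182 in WT polyp, against 0.0554 to 0.0814 at steady state and after DSS. WT polyp therefore held Hoxd13 at 41.1 TPM with almost no Hoxd12, a combination seen in none of the other libraries. As a whole the Hoxd cluster made up 32.4% of Hox TPM in KO non-polyp and 3.12% in WT non-polyp, 29.8% in KO polyp and 11.2% in WT polyp, and 25.4% to 28.6% in the steady-state and DSS libraries. Where files list loci assembled from the reads, the locus that holds Hoxd13 gave 128 TPM in KO non-polyp, 1.91 TPM in WT non-polyp, 125 TPM in KO polyp and 42.7 TPM in WT polyp, close to the annotated values.

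**Figure D3:**
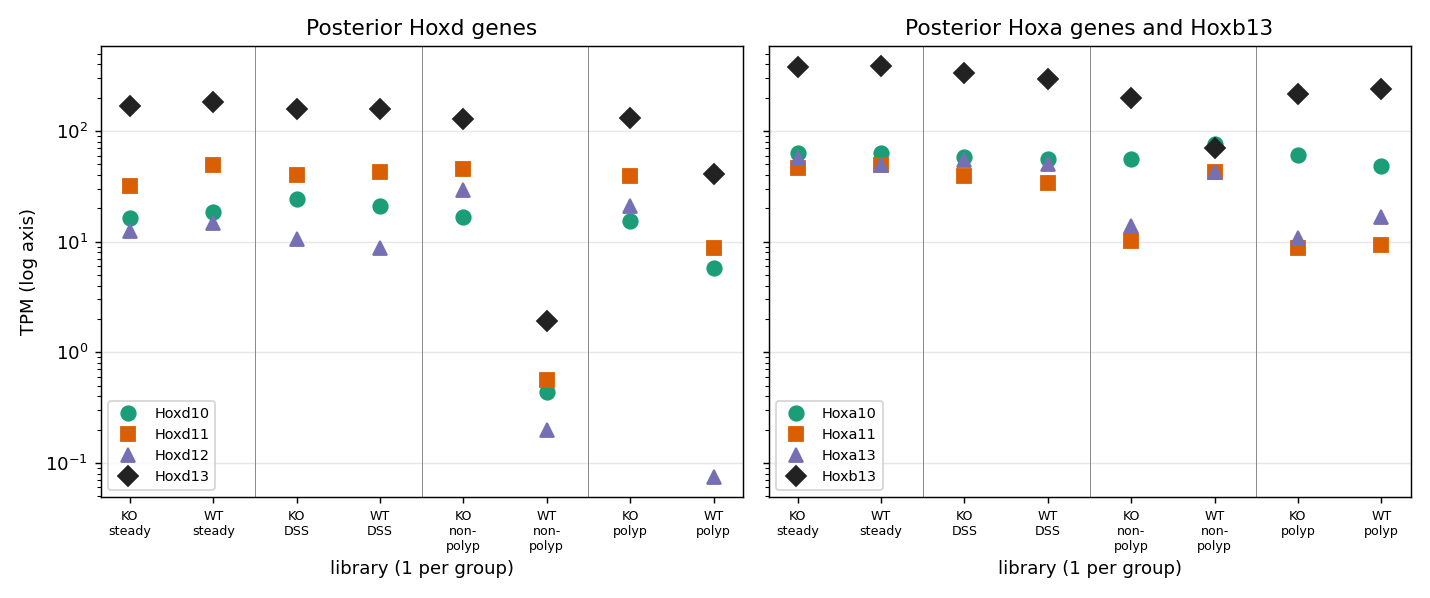
TPM (log axis) of posterior Hoxd genes (left) and of posterior Hoxa genes with Hoxb13 (right) in each library, 1 point per gene and library, KO left of WT at each stage. The 4 Hoxd genes drop to 1.91 TPM or less in WT non-polyp, while Hoxa11 and Hoxa13 are low in the other 3 day 112 libraries.

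Hoxb13 (ENSMUSG00000049604, chromosome 11, 96194316 to 96197447), a gene of the hindgut, tail bud and prostate, was the most abundant Hox gene in 7 libraries. It was at 381 TPM in KO and 384 TPM in WT at steady state, 332 TPM in KO and 296 TPM in WT after DSS, 199.9 TPM in KO and 71.0 TPM in WT non-polyp colon, and 216 TPM in KO and 239 TPM in WT polyp. All day 112 libraries lay below all steady-state and DSS libraries, and WT non-polyp lay lowest. Prostate genes moved with this split, with Pbsn at 1652 to 3943 TPM before day 112 and at 0 at day 112, and their part in the Hoxb13 difference was not tested. Hoxb9, which helps pattern the trunk, ran the other way. Its values were 33.4 TPM in KO and 30.2 TPM in WT at steady state, 34.2 TPM in KO and 28.2 TPM in WT after DSS, 48.9 TPM in KO and 48.4 TPM in WT non-polyp colon, and 57.7 TPM in KO and 61.0 TPM in WT polyp. The day 112 libraries did not overlap the others, and KO and WT non-polyp, so far apart in Hoxd, were alike in Hoxb9. Hoxb6 was at 9.92 TPM in KO and 9.25 TPM in WT at steady state, 7.12 TPM in KO and 9.45 TPM in WT after DSS, 10.8 TPM in KO and 7.39 TPM in WT non-polyp colon, and 12.2 TPM in KO and 4.46 TPM in WT polyp.

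Among the posterior Hoxa genes the libraries split differently. Hoxa13 (ENSMUSG00000038203, chromosome 6, 52257694 to 52260880, minus strand), which is required for the hindgut and the genital tubercle, was at 57.1 TPM in KO and 49.7 TPM in WT at steady state, 54.3 TPM in KO and 50.3 TPM in WT after DSS, 13.8 TPM in KO and 43.0 TPM in WT non-polyp colon, and 10.8 TPM in KO and 16.6 TPM in WT polyp. Hoxa11, a gene of limb and urogenital mesoderm, was at 46.3 TPM in KO and 49.7 TPM in WT at steady state, 39.3 TPM in KO and 34.0 TPM in WT after DSS, 10.2 TPM in KO and 42.9 TPM in WT non-polyp colon, and 8.71 TPM in KO and 9.33 TPM in WT polyp. For both genes WT non-polyp lay near the steady-state and DSS libraries, and the other 3 day 112 libraries lay far below all of them. Within WT non-polyp the group 13 genes thus split, with Hoxa13 at 43.0 TPM beside Hoxd13 at 1.91 TPM. Hoxa11os, an antisense RNA that overlaps Hoxa11, was lowest in the same 3 libraries, at 45.7 TPM in KO and 170.2 TPM in WT non-polyp colon and 34.4 TPM in KO and 45.5 TPM in WT polyp, against 204 to 258 TPM at steady state and after DSS. Use of strand in the counting is not given in the sources used here, so Hoxa11 and Hoxa11os cannot be fully told apart, while Hoxa13 overlaps no listed gene.

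Hoxa10, a gene of the uterus and posterior trunk, stayed between 48.6 and 76.5 TPM, at 63.0 TPM in KO and 63.4 TPM in WT at steady state, 58.1 TPM in KO and 56.4 TPM in WT after DSS, 55.4 TPM in KO and 76.5 TPM in WT non-polyp colon, and 61.3 TPM in KO and 48.6 TPM in WT polyp. Against this neighbour, Hoxa13 was at 0.248 of Hoxa10 in KO non-polyp and 0.562 in WT non-polyp, 0.176 in KO polyp and 0.341 in WT polyp, and 0.784 to 0.934 at steady state and after DSS. Hoxa9, known also from blood progenitors, was at 40.5 TPM in KO and 40.2 TPM in WT at steady state, 42.8 TPM in KO and 42.1 TPM in WT after DSS, 77.5 TPM in KO and 41.3 TPM in WT non-polyp colon, and 77.6 TPM in KO and 51.9 TPM in WT polyp. The 2 KO day 112 libraries were the highest, and WT non-polyp was within the range of the steady-state and DSS libraries.

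Smooth muscle genes moved in the same direction as Hoxa11 and Hoxa13. Summed over 13 genes, of which none was at 0 in any library, they reached 7202 TPM in KO and 6515 TPM in WT at steady state, 7223 TPM in KO and 6072 TPM in WT after DSS, 787 TPM in KO and 10906 TPM in WT non-polyp colon, and 498 TPM in KO and 792 TPM in WT polyp. Hoxa11 and Hoxa13 were high in the 5 libraries with sums of 6072 TPM or more and low in the 3 with 792 TPM or less. Hoxd13 did not share that split, since it was at 129.8 and 131 TPM in the KO day 112 libraries with little muscle and at 1.91 TPM in the library with the most. Genes of enteric neurons and glia, which lie mostly within the muscle wall, summed to 26.6 TPM in KO and 129 TPM in WT non-polyp colon over 10 genes, and to 23.6 TPM in KO and 28.6 TPM in WT polyp. The part of muscle content in the Hox values was not tested.

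**Figure D4:**
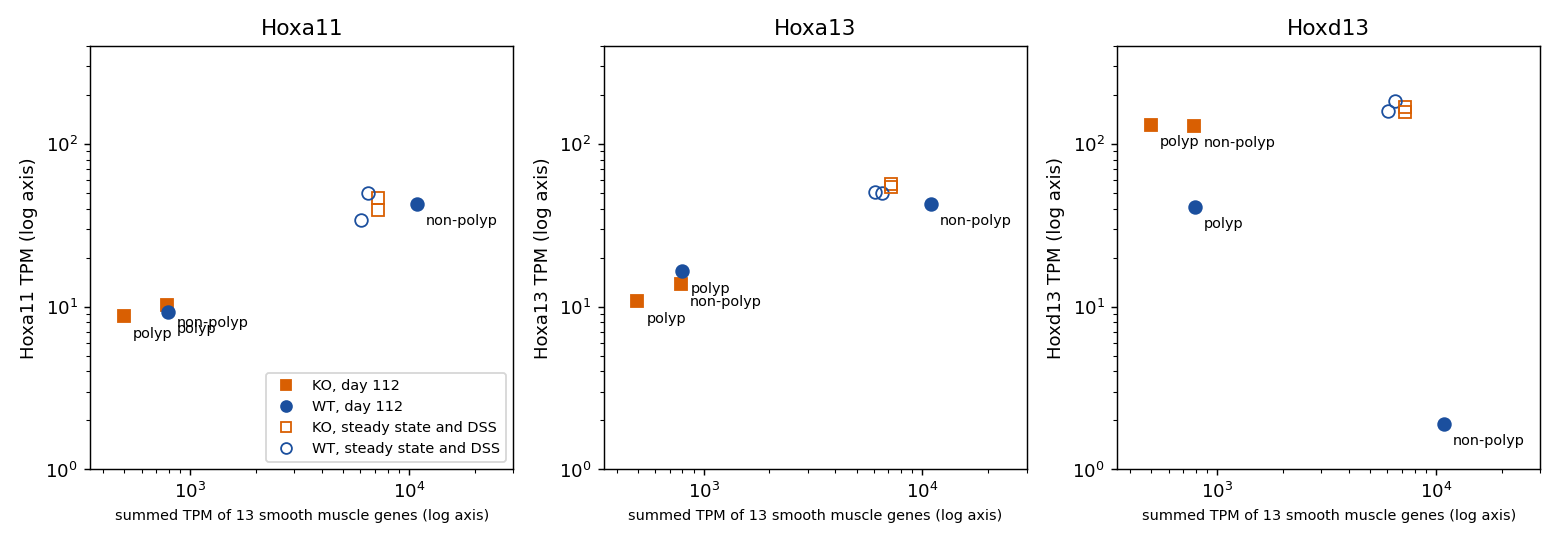
TPM of Hoxa11, Hoxa13 and Hoxd13 (log axis) against the summed TPM of 13 smooth muscle genes (log axis), 1 point per library; filled day 112 points carry their tissue. Hoxa11 and Hoxa13 are low in the 3 libraries with at most 792 TPM of muscle genes, whereas Hoxd13 is lowest, at 1.91 TPM, in WT non-polyp with 10906 TPM.

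Central Hoxa genes pattern the trunk. Hoxa7 was at 24.7 TPM in KO and 35.3 TPM in WT at steady state, 34.1 TPM in KO and 33.7 TPM in WT after DSS, 23.1 TPM in KO and 41.8 TPM in WT non-polyp colon, and 20.9 TPM in KO and 31.1 TPM in WT polyp. Hoxa5, known for its role in lung and gut mesenchyme, was at 16.2 TPM in KO and 16.8 TPM in WT at steady state, 18.2 TPM in KO and 17.7 TPM in WT after DSS, 18.0 TPM in KO and 29.8 TPM in WT non-polyp colon, and 18.0 TPM in KO and 14.5 TPM in WT polyp. WT non-polyp was the highest library for both. Hoxa6 was at 10.8 TPM in KO and 10.1 TPM in WT at steady state, 4.64 TPM in KO and 1.95 TPM in WT after DSS, 5.49 TPM in KO and 3.91 TPM in WT non-polyp colon, and 4.32 TPM in KO and 1.77 TPM in WT polyp. Both steady-state values lay above all others. Hoxa3, a gene of the pharyngeal region, was at 2.44 TPM in KO and 10.4 TPM in WT at steady state, 8.08 TPM in KO and 10.8 TPM in WT after DSS, 5.33 TPM in KO and 16.8 TPM in WT non-polyp colon, and 3.89 TPM in KO and 4.99 TPM in WT polyp.

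The remaining genes were lower, at no more than 4.62 TPM for 3 Hoxa genes, 9.28 TPM for 7 Hoxb genes and 8.64 TPM for 5 Hoxd genes. WT non-polyp held the highest value of Hoxa2 (4.62 TPM), Hoxa4 (3.01 TPM), Hoxb2 (5.40 TPM), Hoxb3 (4.72 TPM), Hoxb4 (4.69 TPM) and Hoxb5 (9.28 TPM), so that its anterior and central genes were high while its posterior Hoxd genes were low. Groups 1 to 4 made up 9.42% of its Hox TPM, against 1.64% to 3.11% in the other libraries, and groups 5 to 8 made up 21.3%, against 8.04% to 10.98%.

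Loss of DCIR was compared first at each stage. At steady state and after DSS the Hox genes of the 2 genotypes were close, and at day 112 they were not. At steady state 1 of 26 genes differed at least 2-fold, beside 4.77% of all 16855 genes (1.18% lower), with a median absolute log2 difference of 0.10 over the Hox genes and 0.22 over all genes. That gene was Hoxa3 (KO minus WT, -1.73). Its coverage hardly differed, at 2.29 reads per base in KO and 2.54 in WT. The ratio of coverage to FPKM, a level per length like TPM, was 69.1% of the usual ratio of that library in KO and 17.6% in WT, so the deposited measures disagree on its difference, and the gene overlaps 9 listed genes. After DSS 1 gene was past 2-fold, Hoxb3 (1.61), beside 4.66% of all genes (1.86% higher). Its coverage was 1.49 reads per base in KO and 1.44 in WT, and its ratio was 24.3% of the usual in KO and 100% in WT. TPM differences of Hoxa3 and Hoxb3 carry this limit at every stage. Hoxd11 carries it for WT non-polyp, at 76.1% of the usual ratio there and 35.4% to 46.7% in the other libraries. For 11 of the 26 genes, Hoxd9, Hoxd10, Hoxd12 and Hoxd13 among them, the ratio was no more than 0.5% below the usual in any library.

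In non-polyp colon at day 112, 6 Hox genes were higher and 7 lower in KO by at least 2-fold, 13 of 26, where 24.6% of all genes were past that fold (14.7% higher and 9.94% lower). Higher were Hoxd13 (log2 difference 5.49), Hoxd11 (4.88), Hoxd12 (4.67), Hoxd10 (3.62), Hoxb13 (1.48) and Hoxd9 (1.10). Lower were Hoxb2 (-2.09), Hoxa11 (-1.97), Hoxb5 (-1.84), Hoxa13 (-1.58), Hoxa3 (-1.49), Hoxa4 (-1.18) and Hoxa2 (-1.09). The median absolute difference was 1.04 over the Hox genes and 0.55 over all genes. In polyps 5 genes were past 2-fold, beside 5.92% of all genes (3.67% higher), and all of them were higher, namely Hoxd12 (4.35), Hoxd11 (2.06), Hoxd13 (1.65), Hoxd10 (1.28) and Hoxb6 (1.27). The 4 posterior Hoxd genes were therefore higher in KO by at least 2-fold in both tissues of day 112. The plot of genotype differences shows that no other Hox gene was. The 2 KO libraries were nearly alike, at a root mean square log2 difference of 0.39 over all genes, so these comparisons are not separate checks. Squamous epithelium genes, which mark the anal canal, also had higher sums over 11 genes in KO than in WT at day 112. These were 178 TPM in KO and 14.99 TPM in WT non-polyp colon, and 155 TPM in KO and 89.2 TPM in WT polyp. They did not follow Hoxd13 across stages. At steady state and after DSS the squamous sums were 19.1 to 43.8 TPM, while Hoxd13 was at 157 to 183 TPM. Krt14 and Krt13 made up most of the sums of KO non-polyp, KO polyp and WT polyp, where the basal cell genes Krt5 and Trp63 were at no more than 0.185 TPM and 0.0135 TPM. Fat cell and pancreatic genes, given above, were highest of the day 112 libraries in WT non-polyp. The part of such cells was not tested, and genotype and place of sampling cannot be told apart with 1 library per group.

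**Figure D5:**
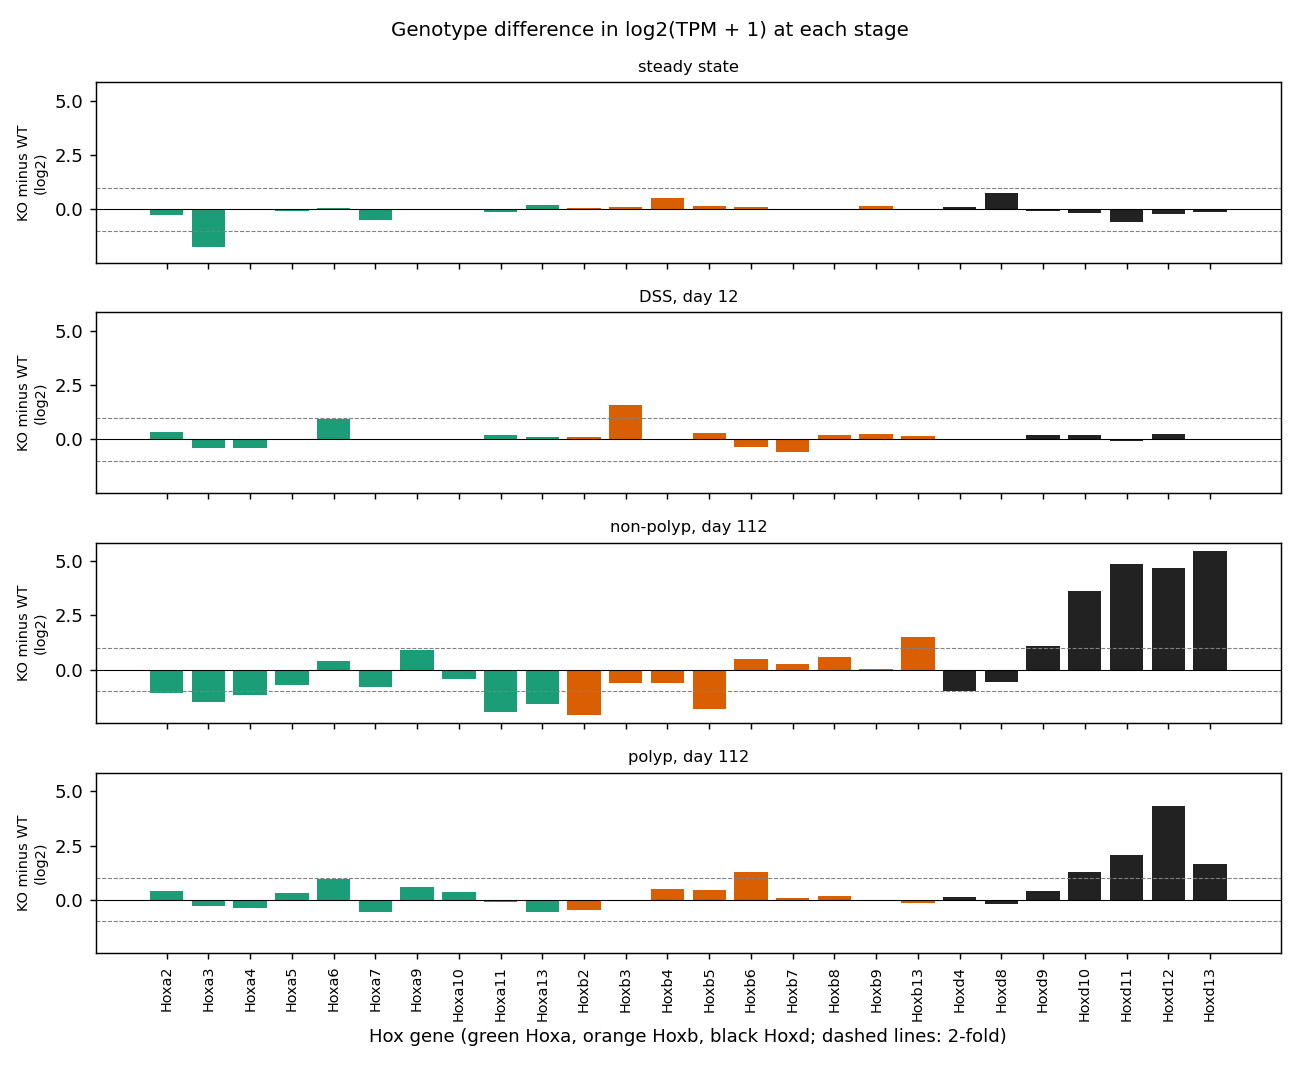
KO minus WT difference in log2(TPM + 1) for the 26 Hox genes with a mean of at least 1 TPM, at each stage (1 library per genotype), with dashed lines at 2-fold. At steady state and after DSS 1 bar each passes 2-fold, while Hoxd10 to Hoxd13 reach 3.62 to 5.49 in non-polyp colon and 1.28 to 4.35 in polyp.

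A genotype difference common to all stages was then tested with a limma fit of stage and genotype to the 8 libraries. Of the 26 Hox genes none passed, and none of the 16855 genes did (0%). At an unadjusted p under 0.05 there were 3 Hox genes and 736 genes in all (4.37%). The smallest p among those higher belonged to Hoxa6 (0.59 ± 0.23 SE on the log2 scale, limma adjusted p = 0.705) and Hoxd12 (2.26 ± 0.94, limma adjusted p = 0.705). Among those lower it belonged to Hoxa3 (-0.97 ± 0.31, limma adjusted p = 0.705) and Hoxa7 (-0.46 ± 0.17, limma adjusted p = 0.705). Hoxa3 was lower in KO at 4 of 4 stages and Hoxa7 at 3 of 4, and Hoxa6 was higher in KO at 4 of 4 and Hoxd12 at 3 of 4. These genes were named for their small p in the same libraries, so the signs are no further check.

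The second question was what DSS did to Hox expression. In neither genotype did the posterior genes move past 2-fold. In KO, Hoxb3 (1.55) and Hoxa3 (1.40) were higher and Hoxa6 (-1.06) lower after DSS, 3 of 26 beside 9.18% of all genes (1.76% higher and 7.42% lower), but Hoxa3 coverage was lower, at 1.78 reads per base in KO DSS and 2.29 in KO steady state. In WT 1 gene passed, Hoxa6 (-1.92), beside 6.46% of all genes (3.73% lower). In the fit over both genotypes no Hox gene and no other gene passed (0%), with 1 Hox gene and 904 genes (5.36%) at an unadjusted p under 0.05. Hoxa6 had the smallest p, at -1.49 ± 0.33 (limma adjusted p = 0.862), followed among the lower by Hoxa4 (-0.30 ± 0.37, limma adjusted p = 0.943). Among the higher were Hoxd9 (0.64 ± 0.35, limma adjusted p = 0.879) and Hoxa3 (0.72 ± 0.44, limma adjusted p = 0.879).

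Non-polyp colon of day 112 was set against steady-state colon next. In KO 1 Hox gene was higher and 3 were lower by at least 2-fold, beside 25.1% of all genes (9.53% higher and 15.6% lower), and they were Hoxd12 (1.17), Hoxa11 (-2.07), Hoxa13 (-1.98) and Hoxb2 (-1.67). In WT 2 were higher and 6 lower, beside 12.4% of all genes (3.92% higher and 8.48% lower). Higher were Hoxb3 (1.68) and Hoxb5 (1.03), and lower were Hoxd13 (-5.98), Hoxd11 (-5.00), Hoxd10 (-3.76), Hoxd12 (-3.73), Hoxb13 (-2.42) and Hoxa6 (-1.18). Hoxd12 was past 2-fold in opposite directions. The fit over both genotypes called 55 of all genes (0.326%) and no Hox gene, with 3 Hox genes at an unadjusted p under 0.05 where 16.5% of all genes were. The lower genes with the smallest p were Hoxb13 (-1.67 ± 0.40, limma adjusted p = 0.150) and Hoxa6 (-1.02 ± 0.33, limma adjusted p = 0.233), and the higher ones Hoxb9 (0.60 ± 0.18, limma adjusted p = 0.209) and Hoxb3 (1.31 ± 0.56, limma adjusted p = 0.317). Sex-linked and prostate genes differ between these stages too, and cannot be told apart from the day.

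The fitted Hox differences between non-polyp and steady-state colon turned on a single library. Without KO non-polyp they included Hoxd13 (-5.67) and Hoxb13 (-2.41), both lower at day 112. Without WT non-polyp they included Hoxa13 (-1.83), Hoxa11 (-2.13), Hoxb13 (-0.93) and Hoxb2 (-1.58), all lower. Hoxb13 was lower in both fits. In each of these fits the remaining non-polyp library stood alone in its group. It was taken to vary like the rest, so no calls are read here. The genes above were listed because they passed the threshold in these same fits, where genes outside the Hox clusters passed as well. Their number is therefore not read as a result about the Hox genes.

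Polyps were set against non-polyp colon last. In KO 1 Hox gene was past 2-fold, Hoxb3 (-1.43), beside 2.87% of all genes (1.56% lower). Over the Hox genes these 2 libraries were again the closest of the 28 pairs, with a root mean square log2 difference of 0.37, against 1.12 between KO and WT polyp and 2.11 between KO and WT non-polyp. By the median absolute difference, KO and WT steady state (0.10) were closer than KO polyp and KO non-polyp (0.19). In WT 4 Hox genes were higher in polyp and 9 lower, beside 18.9% of all genes (9.14% higher and 9.8% lower). Those with the largest differences were Hoxd13 (3.86) and Hoxd11 (2.64) among the higher and Hoxa11 (-2.09) and Hoxb3 (-1.99) among the lower, and the others higher were Hoxd10 (2.24) and Hoxb13 (1.74). The mean paralog number was accordingly higher in WT polyp, at 10.9, than in WT non-polyp, at 9.15. The fit over both genotypes called no gene (0%), with 1 Hox gene and 2.94% of all genes at an unadjusted p under 0.05. Its smallest p values were those of Hoxb13 (0.93 ± 0.40, limma adjusted p = 0.858) and Hoxb9 (0.28 ± 0.18, limma adjusted p = 0.858) among the higher, and of Hoxb3 (-1.71 ± 0.56, limma adjusted p = 0.858) and Hoxa3 (-0.97 ± 0.44, limma adjusted p = 0.858) among the lower. Without KO non-polyp, which left 1 library in that group, the fitted differences included Hoxd13 (4.43), Hoxd10 (2.66) and Hoxb13 (1.67), higher in polyp. They also included Hoxa11 (-2.13), Hoxb2 (-1.89), Hoxb5 (-1.80) and Hoxa13 (-1.57), lower. These genes too were listed for passing in that fit, where genes outside the Hox clusters also passed, so no calls are read.

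Other regulators of gut position were read beside the Hox genes. Cdx2, which specifies intestinal epithelium and activates Hox genes, was at 28.8 TPM in KO and 236 TPM in WT non-polyp colon, 26.7 TPM in KO and 48.1 TPM in WT polyp, and 51.4 to 83.7 TPM at steady state and after DSS. Isx, an intestinal homeobox gene that restrains vitamin A uptake and is strongest in small intestine, was at 7.44 TPM in KO and 39.4 TPM in WT non-polyp colon. Fabp2, the fatty acid binding protein of absorptive cells, was at 747 TPM in WT non-polyp and 3.45 to 21.1 TPM in the other libraries. Small intestine genes as a list summed to 819 TPM in WT non-polyp and 48.8 to 159 TPM elsewhere over 11 genes, but the 10 genes other than Fabp2 summed to 71.5 TPM in WT non-polyp and 42.3 to 148 TPM elsewhere. Of these, Slc10a2 was at 6.77 TPM in WT non-polyp, below all other libraries, and Alpi at 12.5 TPM, above them. Ly6g, taken here as a distal colon gene, was at 79.2 TPM in WT non-polyp and 269 to 378 TPM in the other libraries. Insl5, a hormone of distal colon endocrine cells, did not follow it, at 12.3 TPM in KO and 162 TPM in WT non-polyp colon. Nor did Pyy, at 159 TPM in KO and 305 TPM in WT non-polyp colon, or Hsd11b2, at 65.0 and 463 TPM. Scnn1b (9.45 and 9.59 TPM) and Scnn1g (1.81 and 1.94 TPM) were alike in these 2 libraries. The 6 distal colon genes summed to 1020 TPM in WT non-polyp and 499.8 to 710 TPM in the other day 112 libraries. At steady state and after DSS they summed to 1429 to 2615 TPM.

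In the limma fits none of the 5 lists of regulators and regional genes had a member that passed in any contrast. Of 12 fitted gut region factors 2 were lower in KO at an unadjusted p under 0.05, Cdx2 (-1.23 ± 0.43, limma adjusted p = 0.705) and Isx (-1.03 ± 0.39, limma adjusted p = 0.705), and the list's median was -0.06. Of 7 fitted Hox cofactors, which bind DNA together with Hox proteins, Pbx3 was lower (-0.80 ± 0.31, limma adjusted p = 0.705), followed by Pknox1 (0.57). Of 18 chromatin regulators that silence or maintain Hox clusters, 2 were higher, Kdm6b (0.65) and Ezh1 (0.33), with a list median of 0.28, and no member of the 6 distal colon or 5 small intestine genes reached that level. Hsd11b2 (-1.04) and Insl5 (-1.15), and Fabp2 (-2.05) and Slc10a2 (0.36), had the smallest p in those lists. For non-polyp against steady state, Isx (3.44 ± 0.56, limma adjusted p = 0.0875) and Slc10a2, the ileal bile acid transporter gene (-2.07 ± 0.26, limma adjusted p = 0.0562), came nearest to passing. In the same contrast, others among the smallest p values of the lists belonged to Pdx1 (1.496), Slc5a1 (-1.16), Pyy (-1.40), Scnn1g (-2.26), Meis3 (-0.42), Ezh1 (-0.75) and Cbx7 (-0.82). After DSS such values belonged to Isx (2.40), Sox9 (-1.52), Pyy (0.85), Insl5 (0.83), Pbx2 (-0.27), Cbx7 (-0.64), Slc5a1 (-0.34) and Slc10a2 (-0.31), and between polyp and non-polyp to Cdx2 (-1.19), Ly6g (0.84), Pyy (-0.41), Pbx3 (-1.13), Meis1 (-0.91), Cbx2 (0.94), Rnf2 (0.37), Slc10a2 (0.74) and Fabp2 (-3.65).

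The 4 clusters hold further transcripts between the Hox genes. Within the spans on chromosome 6 (52155590 to 52260880), chromosome 11 (96194316 to 96368256), chromosome 15 (102921103 to 103036852) and chromosome 2 (74668310 to 74765142), 46 other genes were listed, of which 9 were at 0 everywhere and 20 reached 10 TPM in some library. Hotair, the Hoxc antisense RNA, was at 0 in every library. Hotairm1, a long noncoding RNA of the Hoxa cluster, was highest in WT polyp, at 28.2 TPM in KO and 18.8 TPM in WT non-polyp colon, 24.5 TPM in KO and 51.3 TPM in WT polyp, and 14.0 to 20.0 TPM earlier. Hoxb5os was at 1.66 TPM in KO and 15.5 TPM in WT non-polyp colon, 1.11 TPM in KO and 0.497 TPM in WT polyp, and 8.80 to 18.1 TPM earlier, the same split as Hoxa11 and Hoxa13. Hoxaas3, which runs antisense to several Hoxa genes, reached 13.6 TPM in WT DSS. Within or near Hoxa11os lie Gm28032, Gm27492, Gm27695, Gm27817, Gm27454 and Gm27543, short gene models, and each was lower in the 3 day 112 libraries with little muscle than in any other library. The rest that reached 10 TPM were Gm28309 and Hoxa11os, described with their neighbours, Gm27867, Gm27868, Gm27477 and 9530018H14Rik near Hoxa genes, Gm27898, Gm27605 and Gm53 near Hoxb genes, and the microRNA genes Mir196b and Mir196a-1.

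MicroRNAs of the miR-196 family lie next to group 9 Hox genes and are known to repress Hox transcripts such as Hoxb8. Their mature sequences from RefSeq (GRCm38.p6) are shown with the seed, bases 2 to 8, in capitals, because both share it.
mmu-miR-196b-5p, chr6:52230129-52230150, minus strand: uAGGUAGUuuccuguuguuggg
mmu-miR-196a-5p, chr11:96265187-96265208, plus strand: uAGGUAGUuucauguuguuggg
The Mir196b row was at 6.73 TPM in KO and 12.0 TPM in WT non-polyp colon, 8.33 TPM in KO and 11.3 TPM in WT polyp, and 20.4 to 32.5 TPM at steady state and after DSS. The Mir196a-1 row was at 19.6 TPM in KO and 25.6 TPM in WT non-polyp colon, 23.7 TPM in KO and 16.3 TPM in WT polyp, and 23.5 to 60.7 TPM earlier. These libraries do not hold mature microRNAs, and Mir196b lies inside Hoxa9, so the rows count reads of longer transcripts. Hoxb8 itself was at 2.37 TPM in KO and 1.25 TPM in WT non-polyp colon, 1.68 TPM in KO and 1.37 TPM in WT polyp, 0.750 TPM in KO and 0.741 TPM in WT at steady state, and 1.495 TPM in KO and 1.15 TPM in WT after DSS.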

How the data were processed

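Libraries were prepared from frozen colon and polyps with an NEBNext Ultra RNA kit, per the labels' protocols. The authors deposited, per the file headers, coverage (mean signal per base), FPKM and TPM for each gene, with TPM used here as the level. StringTie and the build GRCm38 (mm10) are named in the submitters' processing notes, while the aligner, the annotation release and strand use are named in none of the sources used here. In 6 files the TPM column also lists loci assembled from the reads, which were kept apart. Annotated TPM summed to 895587 to 940132 per library. Read counts are unknown, so no counting interval is given, and coverage per FPKM gave the aligned bases.

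Groups were read from the titles. Left out were 13 genes with several rows and 10 whose TPM and FPKM did not keep the ratio of their library within 0.1%, no Hox gene among them. Stage and genotype were fitted to log2(TPM + 1) of 16855 genes whose mean reached 1 TPM in all 8 libraries (limma 3.58.1 with R 4.3.3, intensity trend, 3 residual degrees of freedom, two-sided, Benjamini-Hochberg over all genes, threshold 0.05), and the fit was tested on simulated data. A log2 difference on this scale understates the change of low genes. Single library pairs had no test and were counted past 2-fold. The residual holds any dependence of genotype on stage.

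Genes shown in full were those of groups 10 to 13 reaching 1 TPM and other Hox genes reaching 10 TPM in any library. For each fit the 2 genes with the smallest p in each direction were named, and for each pair at least the 2 largest differences past 2-fold. Members and lists were chosen with earlier results of these data known. Alternatives were other pseudocounts, filters, units, scalings and folds, and leaving out each library in turn. Marker lists of other cell types were summed per library, and of their members in the fits 3 of 13 prostate and seminal vesicle genes passed, lower in non-polyp than in steady state (Pbsn, Tgm4 and Azgp1, limma adjusted p = 0.00106 to 0.0312), and no other. Fibroblast and matrix genes summed to 1037 to 2244 TPM, leukocyte genes to 590 to 1437 TPM and genes of the distal colon to 499.8 to 2615 TPM. Values of a few genes are not reported here.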

Additional observations from a re-analysis of the deposited data

Results flagged for a closer look

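Hoxd12 was singled out because its day 112 difference ran in opposite directions in the genotypes. KO non-polyp minus KO steady state was 1.17 on the log2 scale, with 29.5 TPM in KO non-polyp and 12.5 TPM in KO steady state. WT non-polyp minus WT steady state was -3.73, with 0.197 TPM in WT non-polyp and 14.9 TPM in WT steady state. With 1 library per group the difference between the genotypes was not tested.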

How the results depend on the processing

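With 1 library per group, the fits rest on 3 residual degrees of freedom, and day 112 cannot be told apart from sex-linked genes and from place of sampling. No paired analysis was possible because the labels give no replicate numbers shared between groups. The Hox genes named for their small p in each fit gave 225 values under the alternatives, and other Hox genes are not in this count. Of the 225 values, 221 kept their direction and side of the threshold. Another 3, of Hoxb13, came from fits that left 1 non-polyp library and are not read. In 1 value the direction turned, as Hoxa4 for DSS minus steady state was -0.30 with all libraries. It ran from -0.61 without WT steady state to 0.0101 without KO steady state. Leaving out a library in turn gave 0 to 1 genes called for KO minus WT (1 without both steady-state libraries), 9 to 2238 genes and 0 to 4 Hox genes for non-polyp minus steady state, and 0 to 1529 genes and 0 to 7 Hox genes for polyp minus non-polyp. DSS minus steady state stayed at 0 in these leave-outs. With every gene above 0, 13 genes passed for non-polyp minus steady state, and with FPKM 1 gene passed for polyp minus non-polyp.

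At a fold of 1.5, 3 Hox genes passed between KO and WT at steady state (15.6% of all genes), 2 after DSS (15.4%) and 20 in non-polyp colon (47.3%), 5 between KO DSS and KO steady state (26.2%), 2 between WT DSS and WT steady state (19.5%), 14 between KO non-polyp and KO steady state (44.5%) and 15 between WT non-polyp and WT steady state (30.6%). A pseudocount of 0.1 gave 2 between KO and WT after DSS (8.82%) and 10 between KO non-polyp and KO steady state (29.9%). Mean paralog numbers move by construction when weights or members change. For KO steady state, WT steady state, KO DSS, WT DSS, KO non-polyp, WT non-polyp, KO polyp and WT polyp, weights of log2(TPM + 1) gave 8.81, 8.75, 8.64, 8.76, 8.90, 7.59, 8.98 and 8.79. Leaving out group 13 gave 8.87, 8.86, 8.70, 8.70, 8.98, 7.92, 8.94 and 8.47. Leaving out genes that overlap another listed gene gave 12.4, 12.5, 12.4, 12.4, 12.0, 10.97, 12.0 and 11.9.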
